A study of Mus musculus with 2 samples.

Results

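The zinc transporters Slc30a8 and Slc39a14 and the metallothioneins Mt1 and Mt2 were followed through the endocrine cells of mouse pancreatic islets. They were chosen by symbol, as 4 of the 22383 features of the deposited matrices, and all 4 were found in both libraries. Islets came from mice aged 5 weeks on a C57BL/6N background, and 150 islets pooled from 4 mice made up each group. The control mice, labelled wildtype, were Cre-negative littermates. The other group, labelled TBL/RβKO, carried Ins1Cre, that is Cre recombinase inserted at the Ins1 locus and so made where insulin is made, with floxed alleles of Tbl1x and Tbl1xr1, which encode transcriptional cofactors. Both groups shared overnight culture in RPMI medium with serum before the cells were separated with TrypLE and captured with 10x Genomics 3′ chemistry, version 3.1. Each group is 1 library, so there is no replicate spread to hold any difference against, and every interval is an exact 95% interval that covers counting error only.

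Zinc is packed with insulin in the secretory granules of β-cells, where it holds insulin in crystals. Slc30a8 encodes ZnT8, the granule transporter that moves zinc from the cytosol into these granules, and it is also expressed in α-cells. Slc39a14 encodes ZIP14, which carries zinc, iron and manganese across the plasma membrane into the cell. Mt1 and Mt2 encode small cysteine-rich proteins that bind zinc and copper in the cytosol, and their transcription rises with free zinc through the zinc-sensing factor MTF1, which binds metal response elements, and with glucocorticoids.

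In the insulin class, the barcodes in which Ins1 and Ins2 together were the largest hormone, Slc30a8 stood 3.38-fold lower in the library labelled TBL/RβKO than in the control. In the glucagon class it stood only 1.12-fold lower. Mt2 was higher in that library in all 4 hormone classes, from 1.51-fold in the insulin class to 2.92-fold in the glucagon class, and Mt1 from 1.11-fold to 1.88-fold in the same classes, although in the insulin class Mt1 lay below the median gene. Slc39a14 was scarce in every class, at 8.08 to 25.7 UMIs (tags that mark single captured transcripts) per 1000000, or CPM.

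Mt2 and Mt1 are neighbours. On GRCm39 with GENCODE M39, Mt2 (ENSMUSG00000031762) lies on chromosome 8 from 94898819 to 94900207 and Mt1 (ENSMUSG00000031765) from 94905710 to 94906955, both on the plus strand with 5502 bases between them. Slc39a14 (ENSMUSG00000022094) lies on chromosome 14 from 70540678 to 70588914 on the minus strand, and Slc30a8 (ENSMUSG00000022315) on chromosome 15 from 52158949 to 52199194 on the plus strand. Of the 1300 different 31-base words in the annotated transcripts of Mt1 none occurred in transcripts of another gene. Of the 1134 of Mt2, 30 occurred in transcripts of Gm61019 and Pip5k1a and none in those of Mt1, so the sequence separates both metallothionein genes. The shared words numbered 23 of 1930 for Slc30a8 and 88 of 12410 for Slc39a14. Mt2 overlaps Gm45774 on the opposite strand, and whether counting used the strand is not given in the sources used here.

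The start regions of both metallothionein genes are shown because the transcripts of the pair were high and low in the same barcodes. The RefSeq promoter table (GRCm38.p6) held 2 of the 4 genes, Mt1 and Mt2. Each entry covers 250 bases before the start and 50 from it, and each matched GRCm39 exactly once, on the plus strand, at chr8:94898996-94899295 for Mt2 and chr8:94905467-94905766 for Mt1. By the GENCODE positions above, Mt2 begins at 94898819, before its window, so the whole window lies inside that gene. The start of Mt2 thus differs between the annotations. Capitals mark the cores of metal response elements, TGCACNC or TGCGCNC on either strand.
Mt2: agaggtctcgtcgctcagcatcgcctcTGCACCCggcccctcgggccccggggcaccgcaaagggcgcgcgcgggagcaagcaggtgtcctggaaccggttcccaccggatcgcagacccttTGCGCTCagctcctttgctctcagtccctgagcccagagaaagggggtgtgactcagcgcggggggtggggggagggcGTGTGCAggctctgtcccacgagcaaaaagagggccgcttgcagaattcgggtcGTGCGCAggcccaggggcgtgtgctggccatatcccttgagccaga
Mt1: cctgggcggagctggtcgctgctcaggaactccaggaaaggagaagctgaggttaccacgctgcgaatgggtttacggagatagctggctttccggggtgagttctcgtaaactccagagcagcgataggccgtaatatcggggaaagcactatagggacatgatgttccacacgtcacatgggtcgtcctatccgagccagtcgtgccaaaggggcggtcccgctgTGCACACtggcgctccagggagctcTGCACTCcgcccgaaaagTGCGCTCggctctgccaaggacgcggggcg
Mt2 held 4 such cores, 2 on each strand, beginning at positions -223, -128, -50 and 4, counting the first base of the RefSeq transcript as 0. Mt1 held 3, all on the plus strand, beginning at -23, 2 and 20. Of 32851 promoters of 300 bases in the table, 25.7% held at least 1 core, 1.97% at least 3 and 0.517% at least 4. These matches describe the letters in the windows and do not show binding.

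Barcodes were kept with more than 2500 detected genes and under 10% mitochondrial UMIs, 4747 (control) and 4179 (TBL/RβKO), whose median depths were 40626 and 27425 UMIs. A barcode entered the class of its largest hormone at 100 or more UMIs per 10000. The insulin class held 2877 and 1338 barcodes, the glucagon class 1284 and 1546, the somatostatin class 223 and 374, and the pancreatic polypeptide class 259 and 495, control first. The markers of the insulin, somatostatin and pancreatic polypeptide classes had their highest level in their own class in both libraries, as did Gcg, Irx2 and Ttr in the glucagon class. The 14 barcode sequences found in both libraries, 12 of them kept, were not removed. The insulin class differed between the libraries in other ways than the zinc genes. A second hormone at 100 or more UMIs per 10000 was present in 16.3% of its control barcodes and in 60.8% of those labelled TBL/RβKO, insulin took 49.6% and 27.9% of all UMIs, and the median barcode held 5979 and 7116.5 detected genes. Mafa, a β-cell transcription factor, stood at 463 and 85.5 CPM. The targeted genes went against the label, with Tbl1x at 96.9 CPM in the control and 351 CPM in the other library, and Tbl1xr1 at 20.0 and 129 CPM. Gene-level counts cannot tell a transcript that lacks the floxed exons from a whole one. The median gene of the insulin class lay 0.31 higher on the log2 scale in the library labelled TBL/RβKO, against 0.10, 0.02 and 0.25 in the glucagon, somatostatin and pancreatic polypeptide classes. Each log2 ratio is therefore given on its own and relative to that median.

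Slc30a8 had the largest insulin-class ratio between the libraries among the 4 genes. Its insulin-class level was 607 CPM (603 to 611) in the control, against 179.7 CPM (177 to 182) under the TBL/RβKO label. The log2 ratio was -1.76 (-1.78 to -1.73), and with the median gene as zero point -2.06. Of the 7536 genes with a mean of 10 CPM or more in this class, 22 had a lower ratio. Glucagon-class levels were 1712 CPM (1697 to 1727) and 1527 CPM (1514 to 1540.0), giving a log2 ratio of -0.16 (-0.18 to -0.15) and -0.27 relative to the median gene. The glucagon class thus held more Slc30a8 per UMI than the insulin class in both libraries, by 2.82-fold (control) and 8.50-fold (TBL/RβKO). The size of this gap depended on the insulin share, since with hormones and mitochondrial genes left out of the scaling the glucagon and insulin classes stood at 2267 and 1305 CPM in the control and at 1912 and 276 CPM in the other library.

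The other classes stood far lower. In the somatostatin class the levels were 142 CPM (132 to 153) and 69.9 CPM (64.9 to 75.2), and in the pancreatic polypeptide class 148 CPM (141 to 156) and 107 CPM (103 to 112). In the control, the order was glucagon, insulin, pancreatic polypeptide and somatostatin, the last pair differing by 0.06 on the log2 scale (-0.06 to 0.19), within counting error, though they stood at 237 and 170.1 CPM with hormones and mitochondrial genes left out of the scaling. In the library labelled TBL/RβKO the order was the same over all barcodes, and each neighbour differed by more than counting error. The order of the somatostatin and pancreatic polypeptide classes turned once barcodes with a second hormone were left out. Barcodes with Sst alone stood at 110.5 CPM (control) and 49.7 CPM (TBL/RβKO), and those with Ppy alone at 43.2 and 41.8 CPM. The counting intervals of this pair were apart in the control and overlapped in the other library. The order of these classes is therefore not settled.

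**Figure D1:**
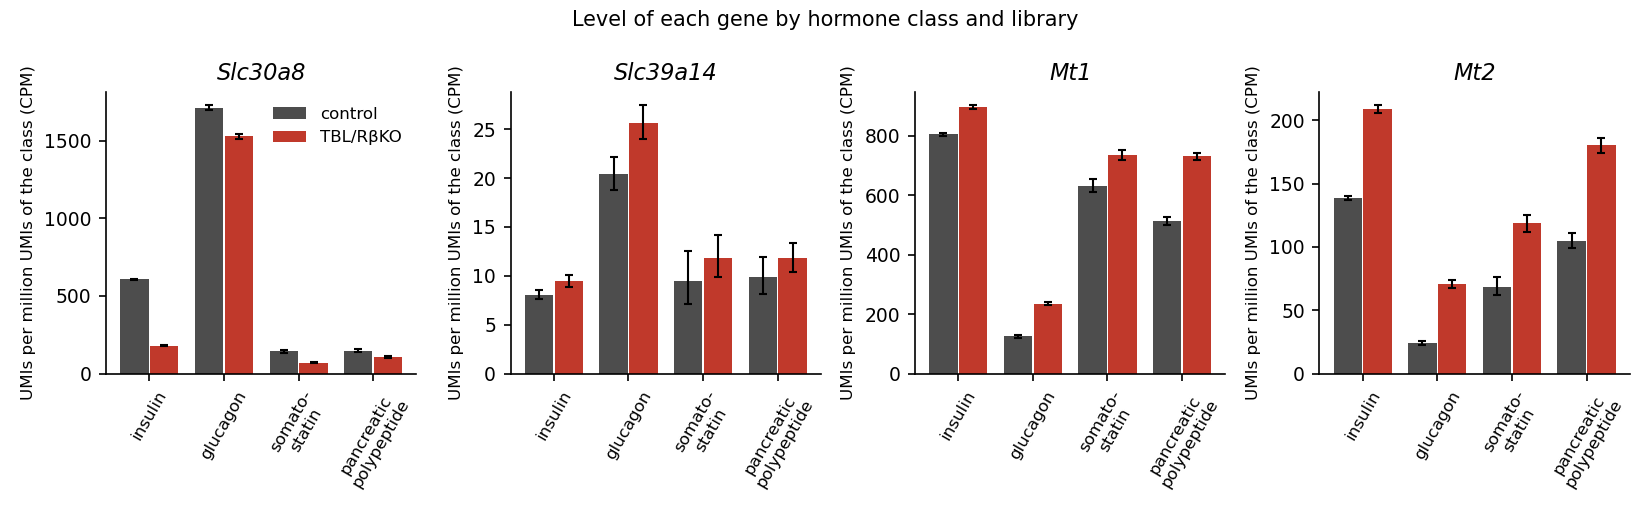
UMIs per 1000000 UMIs of the class (CPM, linear axes from 0) for the 4 genes in each hormone class, in the control (grey) and the library labelled TBL/RβKO (red), with exact 95% Poisson intervals as error bars. Slc30a8 in the insulin class is at 607 and 179.7 CPM and in the glucagon class at 1712 and 1527 CPM, while Mt1 and Mt2 are higher in the library labelled TBL/RβKO in every class before any centring on the median gene.

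Free RNA gives a floor to these levels. Macrophage-marker barcodes outside every hormone class, which should lack the gene, had 71.7 CPM of Slc30a8 (54.7 to 92.3) in the control, where 1 barcode gave 40 of the 60 UMIs, against 3.03 CPM (0.625 to 8.85) under the TBL/RβKO label. The share of such barcodes with a UMI was 18 of 36 (32.9% to 67.1%, median depth 23132 UMIs) in the control and 5.88% (1.23% to 16.2%, 51 barcodes, 18473 UMIs). In the somatostatin class 51.1% of control barcodes had a UMI (44.4% to 57.9%, median depth 21040 UMIs), a share not told apart from that background or from the 41.5% (26.3% to 57.9%) of endothelial-marker barcodes. In the library labelled TBL/RβKO the share was 26.2% (21.8% to 30.97%), above that of macrophage-marker barcodes and not told apart from the 22.5% (10.8% to 38.5%) of endothelial-marker ones, so no difference between the libraries is read from these shares. The summed level of the somatostatin class lay above that of the macrophage-marker barcodes in both libraries, and with free RNA subtracted it was 128 and 66.0 CPM, but the top 10% of barcodes held 72.2% and 89.0% of its UMIs. Those control macrophage-marker barcodes themselves had a median of 73.8 insulin UMIs per 10000, not far under the threshold of a hormone class. In the pancreatic polypeptide class the level was highest in barcodes that also held Gcg. Barcodes with Ppy alone stood at 43.2 CPM (control) and 41.8 CPM (TBL/RβKO), and those that also held Gcg at 434 and 405 CPM. Barcodes with Ppy and insulin had 111 and 25.7 CPM, and those with Ppy and Sst 53.9 and 72.9 CPM. With barcodes of 6000 or more genes left out, the log2 ratio of this class turned from -0.47 to 0.26, so it has no settled direction.

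Over single barcodes the lower level was seen across the insulin class. A Slc30a8 UMI was found in 98.7% of its control barcodes (98.3% to 99.1%) and in those labelled TBL/RβKO in 84.1% (82.0% to 86.0%), although the second was the deeper, at medians of 67897 against 53346 UMIs. With every barcode thinned to 5000 UMIs the shares were 88.4% and 43.9%. The median barcode had 5.72 and 0.915 UMIs of Slc30a8 per 10000, and the upper 10% began at 11.9 and 4.76. The upper 10% of the library labelled TBL/RβKO thus began below the median of the control. For the glucagon class the medians were 16.5 and 15.4 per 10000, the lower 10% ended at 6.91 and 5.01, and 100% and 99.7% of barcodes had a UMI.

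**Figure D2:**
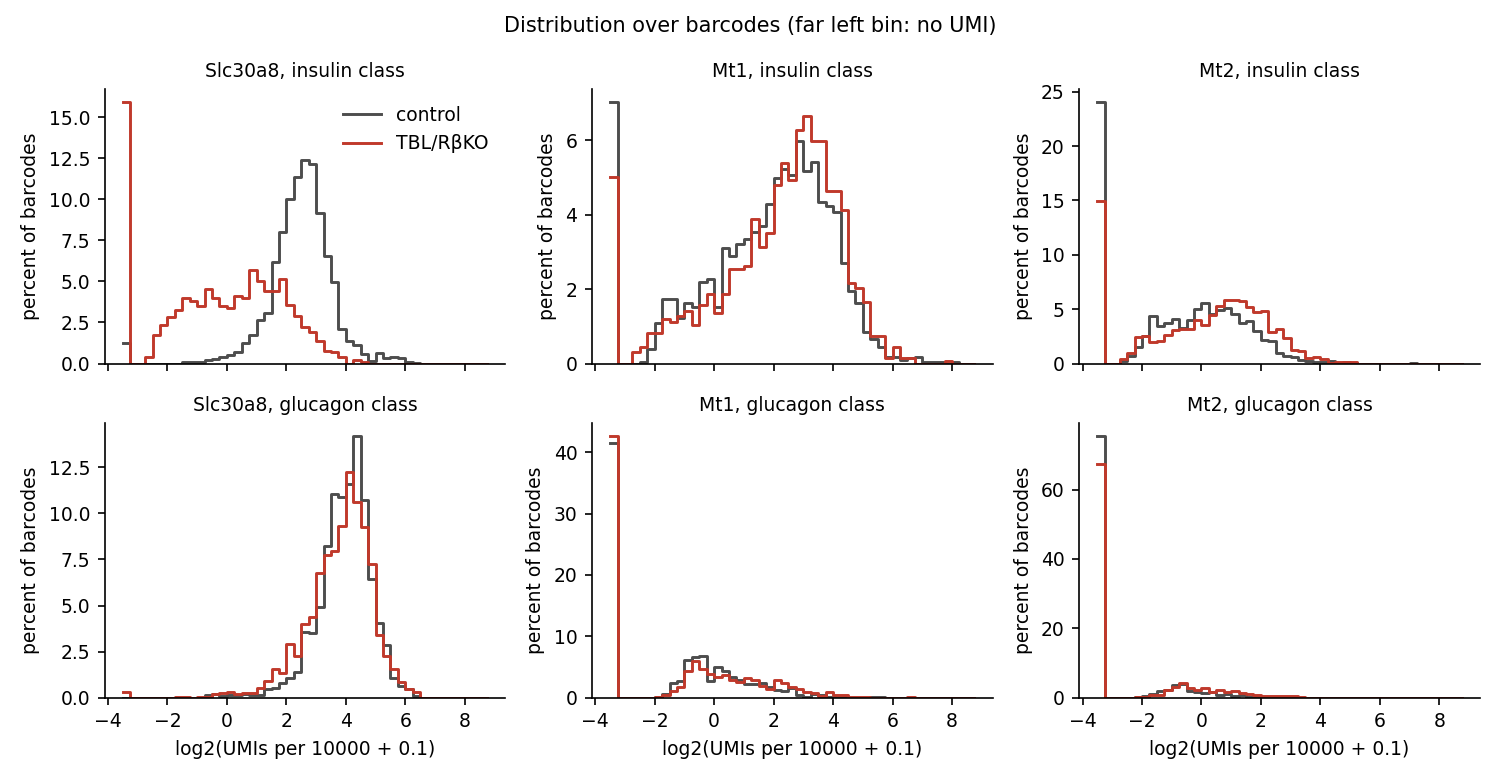
Percent of barcodes (linear axes from 0) by log2 of UMIs per 10000 plus 0.1, in steps of 0.25, for Slc30a8, Mt1 and Mt2 in the insulin class (top) and the glucagon class (bottom), control in grey and the library labelled TBL/RβKO in red; the far left bin holds barcodes with no UMI. Slc30a8 shifts to lower values over the whole insulin class, with medians of 5.72 and 0.915 per 10000, while its glucagon-class curves lie nearly on each other; barcodes without Mt1 make up about the same share of the glucagon class in both libraries.

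The insulin-class difference in Slc30a8 was present at every level of insulin. Counted per 1000000 UMIs other than Ins1 and Ins2, barcodes with 5000 or more insulin UMIs per 10000 had 1236 in the control (1532 barcodes) and 548 in the library labelled TBL/RβKO (141 barcodes). Between 2500 and 5000 the values were 1206 (1100 barcodes) and 299 (495 barcodes), and between 1000 and 2500 they were 798 (82 barcodes) and 185 (459 barcodes). At 100 to 1000 insulin UMIs per 10000 they were 1419 (163 barcodes) and 176 (243 barcodes), but the control barcodes there were shallow, with a median of 9271 UMIs against 54089. Within the library labelled TBL/RβKO the level was thus higher in each step with more insulin, and its highest step lay below the lowest of the control. A second hormone moved with the level as well. Barcodes of that library with insulin and Ppy (404 barcodes) had 78.4 CPM, those with insulin and Gcg (62 barcodes) 464 CPM, and those with insulin alone (525 barcodes) 214 CPM, against 320, 734 and 622 CPM in the control (41, 173 and 2409 barcodes). Without every barcode with a second hormone the log2 ratio was -1.53. Doublets were not removed, and their part in these values was not tested.

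**Figure D3:**
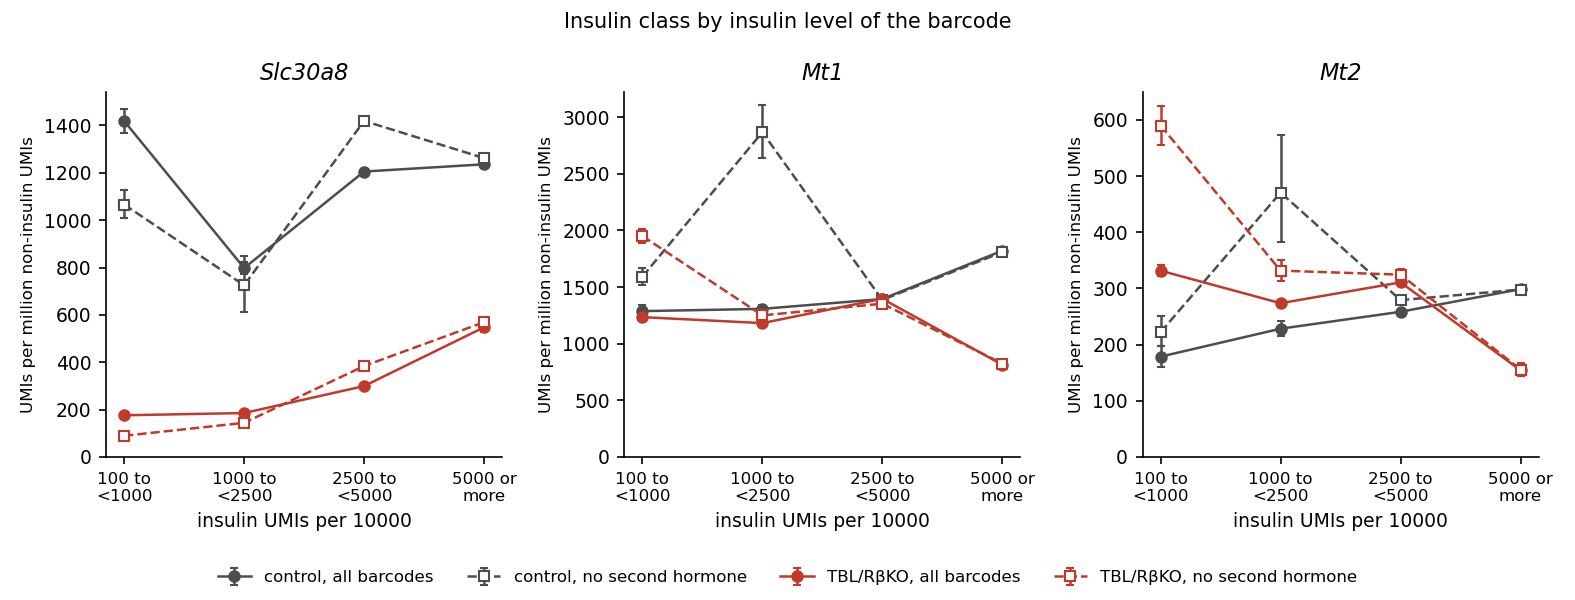
UMIs per 1000000 non-insulin UMIs (linear axes from 0) of Slc30a8, Mt1 and Mt2 in the insulin class by insulin UMIs per 10000 of the barcode, for all barcodes (filled, solid) and barcodes without a second hormone (open, dashed), with exact 95% Poisson intervals. Slc30a8 is lower in the library labelled TBL/RβKO (red) in every bin, from 1419 against 176 to 1236 against 548, whereas Mt1 is lower by more than counting error in 2 bins and nearly equal at 2500 to 5000 over all barcodes; the open control point at 1000 to 2500 rests on 7 barcodes.

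Slc39a14 was near the limit of what these libraries resolve. Insulin-class levels were 8.08 CPM (7.67 to 8.50) for the control and 9.44 CPM (8.85 to 10.1) for TBL/RβKO, under the mean of 10 CPM asked of a gene for its ratio to be counted. The log2 ratio of 0.22 (0.10 to 0.34) turned to -0.08 (-0.20 to 0.04) relative to the median gene, so no direction is given. Macrophage-marker barcodes outside the hormone classes had 7.17 CPM (2.63 to 15.6, 6 UMIs) and 8.08 CPM (3.49 to 15.9, 8 UMIs). These few UMIs do not tell them apart from the insulin class.

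The glucagon class was the highest endocrine class for Slc39a14, with 20.4 CPM (18.8 to 22.1) and 25.7 CPM (24.0 to 27.4) and a log2 ratio between libraries of 0.33 (0.18 to 0.48), which is 0.23 beside the median gene. In the somatostatin class the levels were 9.51 and 11.8 CPM, and in the pancreatic polypeptide class 9.91 and 11.8 CPM, with log2 ratios of 0.32 (-0.17 to 0.82) and 0.25 (-0.08 to 0.59) whose intervals include no difference. The insulin, somatostatin and pancreatic polypeptide classes lay within 1.26-fold of one another in both libraries, but this held only with insulin in the scaling. Without hormones and mitochondrial genes the insulin class was the highest of these 3 in the control, at 17.4 CPM against 15.8 CPM in the pancreatic polypeptide and 11.4 CPM in the somatostatin class. Stromal-marker barcodes outside the hormone classes were higher than any endocrine class, at 66.3 CPM (44.0 to 95.8, 13 barcodes) and 84.3 CPM (74.6 to 94.9, 81 barcodes), and 92.3% and 87.7% of them had a UMI.

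Mt1 was abundant in every endocrine class except the glucagon class. Its insulin-class level was 805 CPM (801 to 809) for the control and 897 CPM (891 to 902) for TBL/RβKO, giving a log2 ratio of 0.16 (0.14 to 0.17) that became -0.15 relative to the median gene, so its direction depended on the scaling. The glucagon class had 125 CPM (121 to 129) and 235 CPM (230.0 to 240.4), so that the log2 ratio was 0.91 (0.85 to 0.97) and 0.81 relative to the median gene. Of 8795 genes counted in the glucagon class, 74 had a higher ratio than Mt1. The size of this ratio depended on the barcodes kept. With barcodes of 6000 or more genes left out it was 0.46 on the log2 scale, and 0.33 relative to the median gene. With equal weight per barcode it was 0.63.

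In the somatostatin class Mt1 stood at 633 CPM (612 to 654) and 735 CPM (719 to 752), giving a log2 ratio of 0.22 and 0.20 relative to the median gene. In the pancreatic polypeptide class it stood at 515 CPM (501 to 528) and 731 CPM (719 to 742), giving a log2 ratio of 0.51 and 0.25 relative to the median gene. Without barcodes that held a second hormone the somatostatin-class log2 ratio turned to -0.57 (37 and 124 barcodes). The order in the control was insulin, somatostatin, pancreatic polypeptide and glucagon, each apart from the next by more than counting error. In the library labelled TBL/RβKO the somatostatin and pancreatic polypeptide classes differed by 0.01 on the log2 scale (-0.03 to 0.05), and the highest class stood 3.81-fold above the lowest, against 6.44-fold in the control. With hormones and mitochondrial genes left out of the scaling the middle of the order turned in the control, with 822 CPM in the pancreatic polypeptide and 757 CPM in the somatostatin class. The insulin and glucagon classes then stood at 1731 and 166 CPM in the control and at 1379 and 294 CPM in the other library, a wider gap in both.

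Mt2 had fewer UMIs than Mt1 and differed more between the libraries. It stood at 139 CPM (137 to 140.3) and 209 CPM (206 to 212) in the insulin class, giving a log2 ratio of 0.59 (0.57 to 0.62) and 0.28 relative to the median gene. The glucagon class had 24.2 CPM (22.4 to 26.1) and 70.7 CPM (67.9 to 73.6), so that the log2 ratio was 1.55 (1.42 to 1.67) and 1.44 relative to the median gene, and 14 of the 8795 genes counted had a higher ratio. The glucagon class had the lowest level of Mt2 in both libraries and the largest ratio between them. With barcodes of 6000 or more genes left out the log2 ratio of this class was 1.17, and with equal weight per barcode 1.27.

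Levels of Mt2 in the somatostatin class were 68.6 CPM (61.8 to 76.0) and 119 CPM (112 to 125), with a log2 ratio of 0.79 and 0.77 relative to the median gene. Without barcodes that held a second hormone the levels were 86.9 CPM (67.7 to 109.8) and 93.0 CPM (82.4 to 105), whose intervals overlap, and the log2 ratio was 0.098. In the pancreatic polypeptide class they were 105 CPM (99.1 to 111) and 180.2 CPM (174 to 186), with a log2 ratio of 0.78 and 0.53 relative to the median gene. The order insulin, pancreatic polypeptide, somatostatin and glucagon was the same in both libraries, each neighbour being apart by more than counting error.

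**Figure D4:**
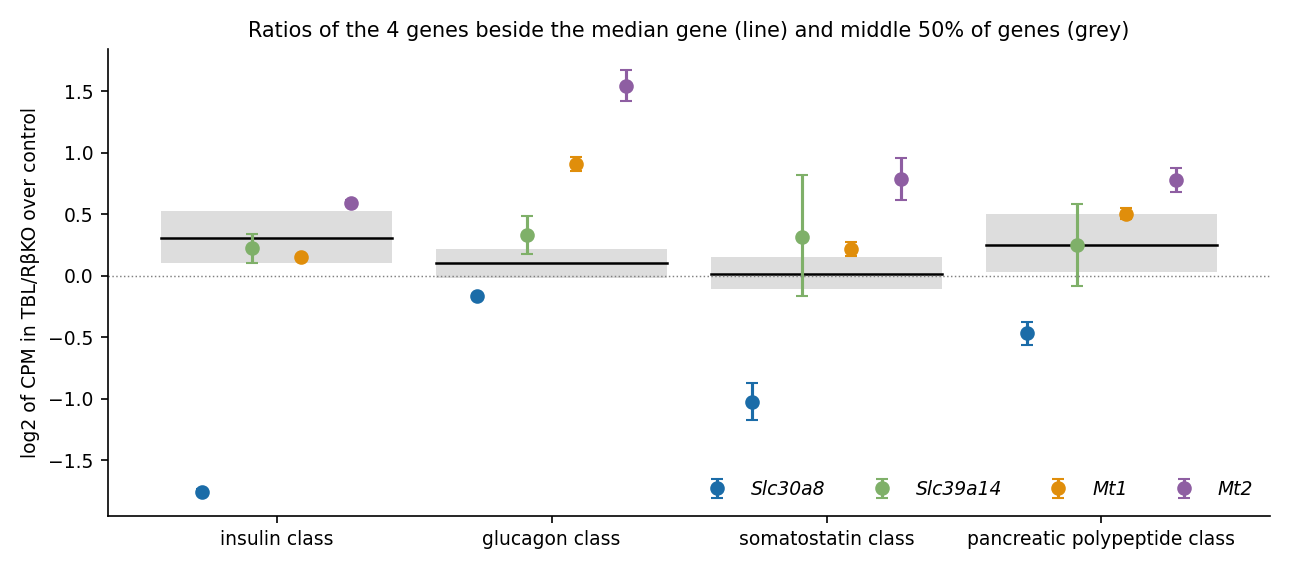
Log2 of CPM in the library labelled TBL/RβKO over the control for the 4 genes in each hormone class, with exact 95% intervals, beside the median gene of the class (black line) and the middle 50% of genes with a mean of 10 CPM or more (grey band). Slc30a8 lies below the band in every class, Mt2 above it in every class, and Mt1 above it in the glucagon and somatostatin classes, at its upper edge in the pancreatic polypeptide class, and inside it and below the median gene in the insulin class; the Slc30a8 point of the somatostatin class rests on UMIs of which 72.2% and 89.0% lie in the top 10% of barcodes.

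The ratio of Mt1 to Mt2 UMIs was lower in the library labelled TBL/RβKO in every hormone class, a comparison within a barcode set that no scaling touches. It was 5.81 (5.73 to 5.89) and 4.29 (4.23 to 4.36) in the insulin class, and 5.16 (4.76 to 5.61) and 3.33 (3.18 to 3.48) in the glucagon class. It was 9.22 (8.27 to 10.3) and 6.20 (5.84 to 6.59) in the somatostatin class, and 4.90 (4.60 to 5.22) and 4.05 (3.91 to 4.20) in the pancreatic polypeptide class. Macrophage-marker barcodes outside the hormone classes went the other way, from 8.62 (7.43 to 10.1) to 13.3 (10.7 to 16.9). In these barcodes Mt1 itself stood at 1999 CPM (1904 to 2097) for the control and 1104 CPM (1040.0 to 1172) for TBL/RβKO, and Mt2 at 232 CPM (200.3 to 267) and 82.8 CPM (65.8 to 103), both lower where the endocrine classes were higher before centring. Endothelial-marker barcodes had little of either, with 30.7 and 41.8 CPM of Mt1.

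Metallothionein transcripts were spread unevenly over barcodes, and those of Mt1 and Mt2 went together. Spearman's rho of Mt1 and Mt2 was taken across barcodes, with each gene as a share of the UMIs other than Ins1 and Ins2. In the insulin class rho was 0.88 in the control (2877 barcodes) and 0.89 in the library labelled TBL/RβKO (1338 barcodes). It was 0.38 and 0.53 in the glucagon class (1284 and 1546 barcodes), where most barcodes had no Mt2 UMI. These are descriptions over barcodes that share a library and depth. In the insulin class the 10% of barcodes with the most Mt1 held 42.9% and 40.6% of its UMIs, and the median barcode had 4.40 and 5.90 per 10000.

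For the glucagon class the difference in Mt1 lay in the upper barcodes. The share of barcodes with an Mt1 UMI was 58.6% (55.8% to 61.3%) for the control and 57.4% (54.9% to 59.9%) for TBL/RβKO at median depths of 19733 and 18800.5 UMIs, and the medians were 0.442 and 0.491 per 10000. The upper 10% began at 2.76 and 4.72, the top 1% at 11.2 and 17.3, and the upper 10% held 65.0% and 72.8% of the UMIs. Endothelial-marker barcodes, taken as low in the gene after their values were seen, had an Mt1 UMI in 53.7% (37.4% to 69.3%, 41 barcodes, median depth 34899 UMIs) and 20.0% (9.05% to 35.6%, 40 barcodes, 11926 UMIs), so the control share of the glucagon class was not told apart from background. The share with an Mt2 UMI was 24.7% (22.4% to 27.1%) and 32.6% (30.3% to 35.0%), against 12.2% (4.08% to 26.2%) and 2.50% (0.0633% to 13.2%) of endothelial-marker barcodes. Barcodes with Gcg alone had 77.3 and 136 CPM of Mt1 and 17.9 and 49.7 CPM of Mt2 (519 and 1232 barcodes). Barcodes of the glucagon class with a second hormone had more Mt1 for every second hormone in both libraries, up to 459 CPM in the 40 barcodes labelled TBL/RβKO that also held insulin, while their Mt2 was not always higher, at 13.5 and 43.7 CPM with Sst. A second hormone was present in 59.6% of the glucagon class in the control and in 20.3% in the other library. In the control 512 of these barcodes held Gcg and insulin, against 40 in the other library. Macrophage-marker barcodes outside the hormone classes had medians of 73.8 (control) and 17.2 (TBL/RβKO) insulin UMIs per 10000. The control median lay not far under the threshold for a second hormone. The part of free RNA in these shares was not tested, so no difference between cells is read from them.

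Metallothioneins did not follow Slc30a8 along the insulin scale. Per 1000000 non-insulin UMIs, Mt1 stood at 1821 in control barcodes with 5000 or more insulin UMIs per 10000 and at 814 in those labelled TBL/RβKO, and Mt2 at 299 and 154. Between 2500 and 5000, Mt1 was at 1394 and 1396, and Mt2 at 258 and 311. Between 1000 and 2500 Mt1 was at 1307 and 1181, and Mt2 at 228 and 274. At 100 to 1000, Mt1 was at 1287 and 1234, with counting intervals that overlap, and Mt2 at 179 and 332. Over all barcodes both genes were thus lower at high insulin in the library labelled TBL/RβKO, and Mt2 was higher there only below 5000. A second hormone was present in 36.2% and 79.4% of the lowest bin, control first, and in 91.5% and 82.1% at 1000 to 2500. Without such barcodes Mt1 in the lowest bin was higher in that library, at 1591 (1522 to 1664) and 1950 (1887 to 2014). Mt2 at 1000 to 2500 was then lower there, at 471 in 7 control barcodes and 332 in 82.

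Other cells and some second hormones moved with these values. In insulin-class barcodes labelled TBL/RβKO, those with insulin and Ppy had 1037 CPM of Mt1 and 242 CPM of Mt2, against 768 and 188 CPM in those with insulin alone. The control went the same way, with 1102 and 170 CPM against 782 and 137 CPM. Barcodes with insulin and Gcg had 680 and 156 CPM under the TBL/RβKO label and 730 and 124 CPM in the control. Those with insulin and Sst had 791 and 164 CPM under that label and 884 and 145 CPM in the control. All 4 ductal markers were higher in the insulin class of that library, for a sum of 183 and 650.2 CPM. Krt19 stood at 1.12 and 63.6 CPM, Krt7 at 157 and 434, Spp1 at 23.8 and 149.8 and Sox9 at 0.994 and 2.99. Their sum was also higher in that library in the glucagon (188 and 351 CPM), somatostatin (242 and 333) and pancreatic polypeptide (262 and 499) classes. The 26 ductal-marker barcodes outside the hormone classes of that library had 538 CPM of Mt1 and 164 CPM of Mt2. Without all barcodes that held non-endocrine markers the insulin-class log2 ratios were 0.16 for Mt1 and 0.60 for Mt2, and without all barcodes with a second hormone they were -0.03 and 0.46.

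The wider set of zinc genes gave the setting for the 4. The list held the SLC30 exporters Slc30a1 to Slc30a10, the SLC39 importers Slc39a1 to Slc39a14, Mt1 to Mt4 and Mtf1, 29 genes in all, and 20 of them had a mean of 10 CPM or more in at least 1 class. With 1 library per group a gene was counted as higher or lower past 2-fold relative to the median gene. In the insulin class 16 genes were counted, of which 2 were higher (Mt3 and Slc39a11), where 3.9% of all 7536 genes were, and 1 was lower (Slc30a8), where 2.0% were. Mt3 and Slc39a11 were under 10 CPM in the control and reached the mean only through the library in which they were high, so nothing is read from that count of 2. Their median was -0.13 relative to the median gene.

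Of the members, only Mt2 in the glucagon class was past 2-fold higher, and only Slc30a8 past 2-fold lower, in the insulin class and, less stably, the somatostatin class. Among glucagon-class barcodes 1 of 19 genes was higher, Mt2, against 0.512% of all genes, and 0 were lower, against 0.0796%. In the somatostatin class 0 of 19 were higher, against 0.723%, and 1 was lower, Slc30a8, against 0.356%, a count that became 0 at a hormone threshold of 500, with free RNA subtracted or under 5% mitochondrial UMIs. In the pancreatic polypeptide class 0 of 18 were past 2-fold in either direction, against 4.13% higher and 1.0% lower. The medians of the list in these 3 classes lay between -0.0029 and 0.01.

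Mt3, a metallothionein best known from brain, stood at 3.00 CPM in the insulin class of the control and 20.9 CPM in that of TBL/RβKO, giving a log2 ratio of 2.80 (2.66 to 2.94) and 2.49 relative to the median gene. In the glucagon class it had 9 and 31 UMIs in all. Mt4 had 0 UMIs in every class of both libraries, which allows up to 0.0165 CPM in the insulin class of the control. Slc39a11, which encodes ZIP11, stood at 8.67 and 23.0 CPM in the insulin class, 74.4 and 117 CPM in the glucagon class, 32.6 and 42.2 CPM in the somatostatin class and 22.9 and 43.4 CPM in the pancreatic polypeptide class. Relative to the median gene its log2 ratios were 1.10, 0.55, 0.35 and 0.67.

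The transporters of the secretory pathway differed little. Slc30a5 and Slc30a7, which load zinc into the early secretory pathway, stood at 33.2 and 32.1 CPM and at 26.8 and 27.8 CPM in the insulin class, which is -0.36 and -0.25 relative to the median gene. Slc39a7, which releases zinc from the endoplasmic reticulum, stood at 54.1 and 57.6 CPM, or -0.22. Mtf1, which encodes the zinc-sensing transcription factor of the metallothionein genes, stood at 22.5 and 24.3 CPM in the insulin class (-0.19) and at 38.8 and 40.7 CPM in the glucagon class (-0.03). Slc30a1, the plasma membrane exporter, was counted in the glucagon and somatostatin classes, at 10.7 and 12.1 CPM and at 10.1 and 10.1 CPM. The remaining importers and exporters counted in the insulin class (Slc30a4, Slc30a9, Slc39a3, Slc39a6, Slc39a9, Slc39a10 and Slc39a13) lay between -0.22 and 0.15.

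**Figure D5:**
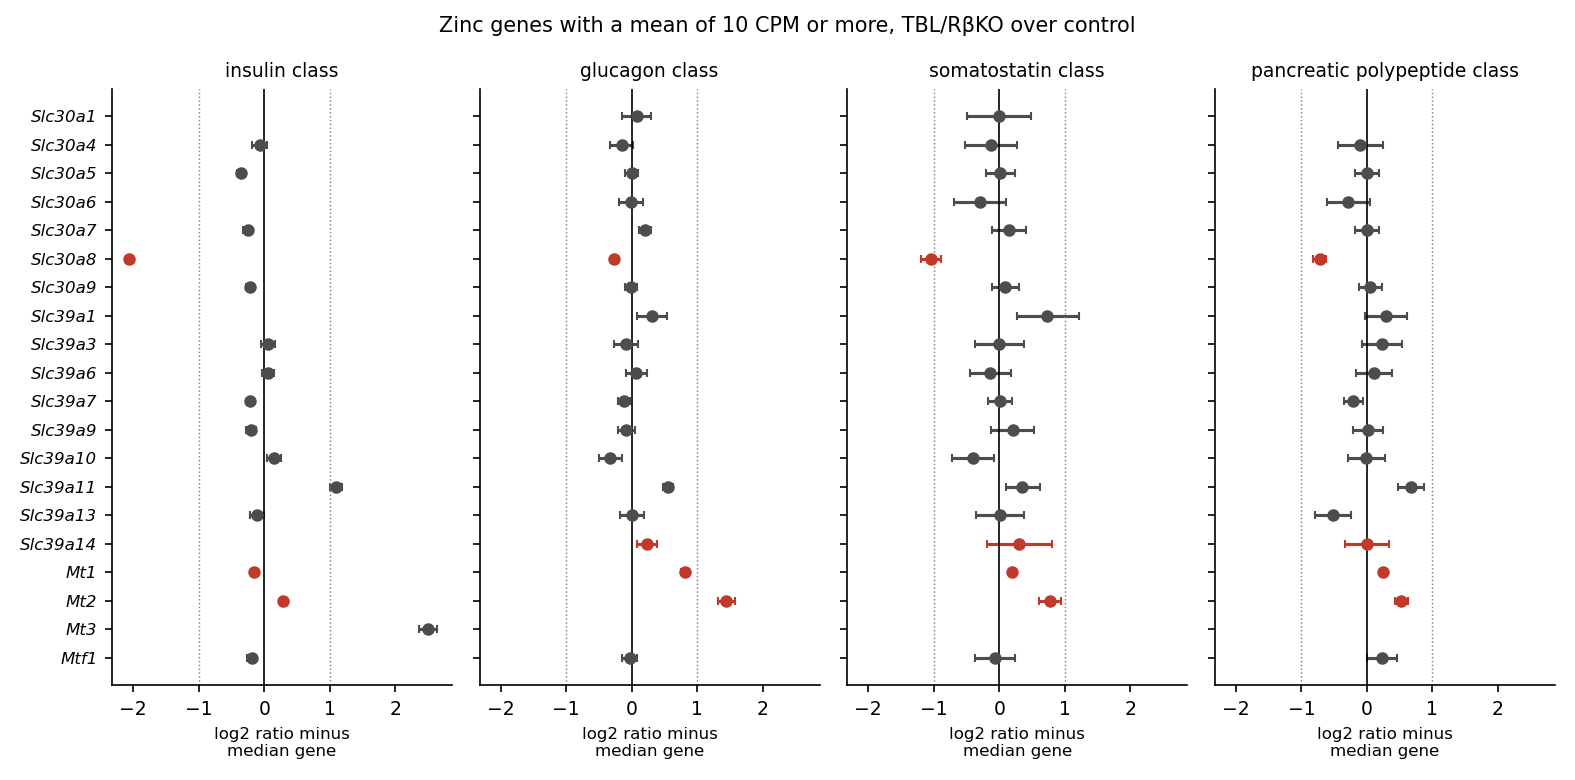
Log2 ratio of the library labelled TBL/RβKO over the control minus that of the median gene, for zinc genes with a mean of 10 CPM or more in each hormone class; red points are the 4 genes followed here, bars are exact 95% intervals and dotted lines mark 2-fold. Slc30a8 at -2.06, Slc39a11 at 1.10 and Mt3 at 2.49 in the insulin class and Mt2 at 1.44 in the glucagon class stand outside the dotted lines, as does Slc30a8 in the somatostatin class at -1.04.

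Among targets of glucocorticoids, which also raise metallothionein transcription, 4 of 6 were counted in the insulin class. Fkbp5, a co-chaperone of the glucocorticoid receptor, stood at 32.1 and 113 CPM there, a log2 ratio of 1.81 and 1.51 relative to the median gene, and at 51.3 and 123 CPM in the pancreatic polypeptide class. The other counted targets, Tsc22d3, Klf9 and Per1, lay between -0.42 and -0.19 relative to the median gene in the insulin class. In the glucagon class, where Mt2 differed most, Fkbp5 was at 93.6 and 112 CPM, 0.15 above the median gene.

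Over the 8 sums of 4 classes and 2 libraries, 8637 genes were ranked by Pearson's r of log2(CPM + 1) with each member, as a description with no test. Slc30a8 was most like Maob (0.99), Vdr (0.98), Crybg3 (0.98), Lifr (0.98) and Satb1 (0.97). Maob, for example, stood at 103 and 34.1 CPM in the insulin class and 186 and 169 CPM in the glucagon class. Mt1 was most like Hadh (0.98), Smim1 (0.97), Jakmip1 (0.96), Vil1 (0.95) and Ifi30 (0.95), and Mt2 most like Sh3pxd2a (0.95), Limch1 (0.94), Chst11 (0.92), Nupr1 (0.91) and Ccdc162 (0.91). Mt1 and Mt2 had an r of 0.90 with each other, and Slc30a8 and Mt1 an r of -0.79. Slc39a14 was most like Per2, Sirt7, Ccnyl1, Dpf3 and Snap91 (0.99 each).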

How the data were processed

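Each deposited matrix gives whole UMI counts by feature and barcode, output of Cell Ranger 7.1.0 on GRCm39 per the labels, with no normalization by the authors. The library totals were 241434108 UMIs in 7067 barcodes (control) and 185062206 UMIs in 5833 barcodes (TBL/RβKO). UMIs were summed per library and hormone class in Python 3.11.15 (numpy 2.4.6, scipy 1.17.1, pandas 2.3.3) and divided by the sum of all genes (CPM), with exact Poisson, binomial and conditional binomial 95% intervals. No test was run, since each group is 1 library. No upper limit on genes was set and no doublet caller was run, and a second hormone, fewer than 6000 genes and other limits were tried as alternatives. Non-endocrine barcodes had 3 or more markers of a type with a UMI, at 20 or more UMIs per 10000 in sum. The script for ratios was tested on simulated data. The text names the 4 members, zinc genes with a mean of 10 CPM or more in a class, glucocorticoid targets past the same mean in the insulin class, and the 5 genes most like each member. Mt4, the ductal markers and Mafa were named after their values were seen. The members and lists were chosen with earlier results of these data known.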

Additional observations from a re-analysis of the deposited data

Results flagged for a closer look

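Mt1 relative to the median gene lay on opposite sides of 0 in the hormone classes, with counting intervals apart from 0. In the library labelled TBL/RβKO its log2 ratio to the control was -0.15 in the insulin class, and 0.81 in the glucagon, 0.20 in the somatostatin and 0.25 in the pancreatic polypeptide class. The difference between the classes was not tested, since each group is 1 library. Without barcodes with a second hormone Mt1 was lower in the somatostatin class as well, at a log2 ratio of -0.57 that rests on 37 control barcodes. With barcodes of 6000 or more genes left out, the values relative to the median gene were -0.0018 (somatostatin) and -0.027 (pancreatic polypeptide). The insulin class then stood at -0.14 and the glucagon class at 0.33. The side of 0 is therefore not settled for the somatostatin and pancreatic polypeptide classes.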

How the results depend on the processing

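Slc30a8 in the insulin, glucagon and somatostatin classes and Mt2 in all 4 classes kept their sign under all 10 alternatives. Mt1 in the glucagon and pancreatic polypeptide classes and Slc39a14 in the glucagon class did so too. The alternatives include the ratio to the median gene, which was chosen after seeing the data. With that ratio and under 6000 genes together, Mt1 in the pancreatic polypeptide class turned to -0.027. With hormones and mitochondrial genes left out of the scaling, the insulin-class log2 ratios were -2.24 (Slc30a8), -0.26 (Slc39a14), -0.33 (Mt1) and 0.11 (Mt2), and the median genes of the insulin, somatostatin and pancreatic polypeptide classes lay at -0.19, -0.011 and -0.016. Under 6000 genes they were -1.92, -0.26, -0.013 and 0.61, Slc30a8 in the pancreatic polypeptide class turned to 0.26, and 0 zinc genes were higher. Without a second hormone they were -1.53, 0.017, -0.027 and 0.46, Mt1 in the somatostatin class turned to -0.57, and Mt2 there came to 0.098 with overlapping counting intervals. At a hormone threshold of 500 they were -1.73, 0.25, 0.13 and 0.55. With equal weight per barcode they were -1.92, 0.023, 0.22 and 0.68, with 1 zinc gene higher. Under 5% mitochondrial UMIs they were -1.66, 0.21, 0.064 and 0.43. Relative to the median gene they were -2.06, -0.083, -0.15 and 0.28. Subtracting free RNA (2.45% and 1.07% of UMIs), leaving out non-endocrine markers or keeping barcodes with more than 1500 genes left all 4 within their counting intervals. Zinc genes higher in the insulin class were 0 at a mean of 50 CPM and 5 with no filter, against 2. The cause of these shifts was not tested. No paired analysis was possible because each group is 1 library. Slc39a14 is limited by depth, with 51 to 1472 UMIs per class.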
